A study of Homo sapiens with 4 samples.

Results

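The genes described are 52 that encode the digestive proteins of the lysosome and the proteins that send them there. They comprise glycosidases, sulfatases, hydrolases of lipids, nucleic acids and peptides, the activator proteins that present lipids to these enzymes, the mannose-6-phosphate sorting genes, and CREG1. Members were taken from a fixed list of symbols, all 52 were found among 34080 genes, and each was placed in a class by the substrate or role of its protein. Of these, 50 passed the filter on low counts and were tested among 13569 genes. GALC and PPT2 did not pass it.

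HK-2 is an immortalised human cell line derived from the renal proximal tubule. The HK-2 cells used here carried a transgene for HA-PRCC-TFE3, an HA-tagged fusion of PRCC with the transcription factor TFE3 that occurs in renal cell carcinoma, and doxycycline switched the transgene on. Doxy(+) cells received 0.2 microg/ml doxycycline for 24 h and Doxy(-) cells were kept for the same time without it, with 2 libraries of polyadenylated RNA in each group. Both groups carried the transgene and no HK-2 cells without it were analysed here, so effects of doxycycline and of the fusion cannot be told apart. The labels do not say whether the libraries came from separate cultures or how many clones the line comprises, so p-values measure only the spread between these libraries. RNA per cell and the number of cells cannot be told apart in such bulk samples.

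Lysosomal enzymes are made in the endoplasmic reticulum, where SUMF1 activates the sulfatases, and most soluble ones receive a mannose-6-phosphate tag in the Golgi. The receptors IGF2R and M6PR bind this tag and carry the enzymes to endosomes. In the acidic lumen each enzyme removes a particular chemical group, so that loss of a single member typically causes storage of its substrate. TFE3 and its relatives of the MiT/TFE family are known to activate many lysosomal genes through a short DNA element called CLEAR, which contains the E-box CACGTG. In the proximal tubule, lysosomes digest proteins taken up from the urinary filtrate.

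Estimated counts on genes came to between 12654233 and 15012743 per library. TFE3, on which reads of the transgene can also be placed, stood at 66.9 and 69.0 CPM (counts per 1000000, after TMM scaling of the library totals) in Doxy(-) 1 and 2, and at 367 and 322 CPM in Doxy(+) 1 and 2. PRCC, the other partner, stood at 50.2 and 47.2 CPM without and at 47.7 and 60.1 CPM with doxycycline. TFE3 thus separated the groups as labelled, whereas the PRCC levels overlapped. Among 15 tubule and epithelial markers, PAX8 was between 565 and 605 CPM and KRT8, KRT18 and KRT19 were between 158 and 673 CPM in every library, but the mature tubule markers AQP1, LRP2, SLC22A6 and ANPEP did not exceed 0.233 CPM in any library. Of 9 such markers tested, KRT8, KRT18, KRT19 and CDH2 were called lower in Doxy(+) and GGT1 higher. Among 16 markers of other cell types CDH5, COL3A1 and INS were at 0 and PTPRC did not exceed 0.666 CPM. Their summed level was 203 and 209 TPM (transcripts per 1000000, a level per transcript length) in Doxy(-) and 263 and 260 TPM in Doxy(+). Without CD68, which encodes a lysosomal membrane glycoprotein, it was between 21.5 and 29.6 TPM in Doxy(-) and between 23.1 and 27.0 TPM in Doxy(+). Of 6 such markers tested, CD68 was called higher and 1 other was called lower. The 5 tested without CD68 were not absent, with a median level of 3.12 CPM over the libraries. Their log2 fold changes (Doxy(+) over Doxy(-)) were from -0.40 to 0.77. The part of these marker differences in the results was not tested.

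First, the genes were examined together. Of the 50 tested, 29 (58.0%) were higher in Doxy(+) at an adjusted p under 0.05 in the edgeR quasi-likelihood test, which is the meaning of called below. Of all genes tested, 9.76% were called higher. None of the members was called lower against 9.53% of all genes, and none was lower at an unadjusted p under 0.05 in edgeR or called lower by DESeq2 or limma. Restricted to genes averaging 10 CPM or more, 28 of 45 members were called higher against 11.9% of such genes. The median log2 fold change (Doxy(+) over Doxy(-) throughout) of the members tested was 0.33, beside 0.0006 over all genes tested. Of the 50 member estimates 45 were above 0, against 6799 of the 13569 over all genes tested. The lowest member estimate was -0.29 for ARSG and the highest 1.62 for ACP5, and both of these genes were expressed at low levels.

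Most of these differences were moderate. Only 4 members, NEU1, TPP1, SCPEP1 and ASAH1, were called with a log2 fold change over 1, the limits used in the study, beside 1.5% of all genes. Both Doxy(+) libraries were above both Doxy(-) libraries for 38 of the 50, against 31.1% of all genes, and the reverse held for SIAE alone, against 30.0% of all genes. Per transcript length, the 52 genes summed to 4083 and 3989 TPM in Doxy(-) and to 5609 and 5666 TPM in Doxy(+), a ratio of the group means of 1.40. With either Doxy(+) library left out, fewer members and also fewer of all genes were called. The median log2 fold change of the members was then 0.31 without Doxy(+) 2 and 0.34 without Doxy(+) 1. Reads can be shared with an overlapping gene for 26 members, with a pseudogene for 7 and with unmatched copies for 5, or 31 in all, and values of these are less certain. Among the other 21, 20 were tested and 15 called higher, against 9.76% of all genes.

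**Figure D1:**
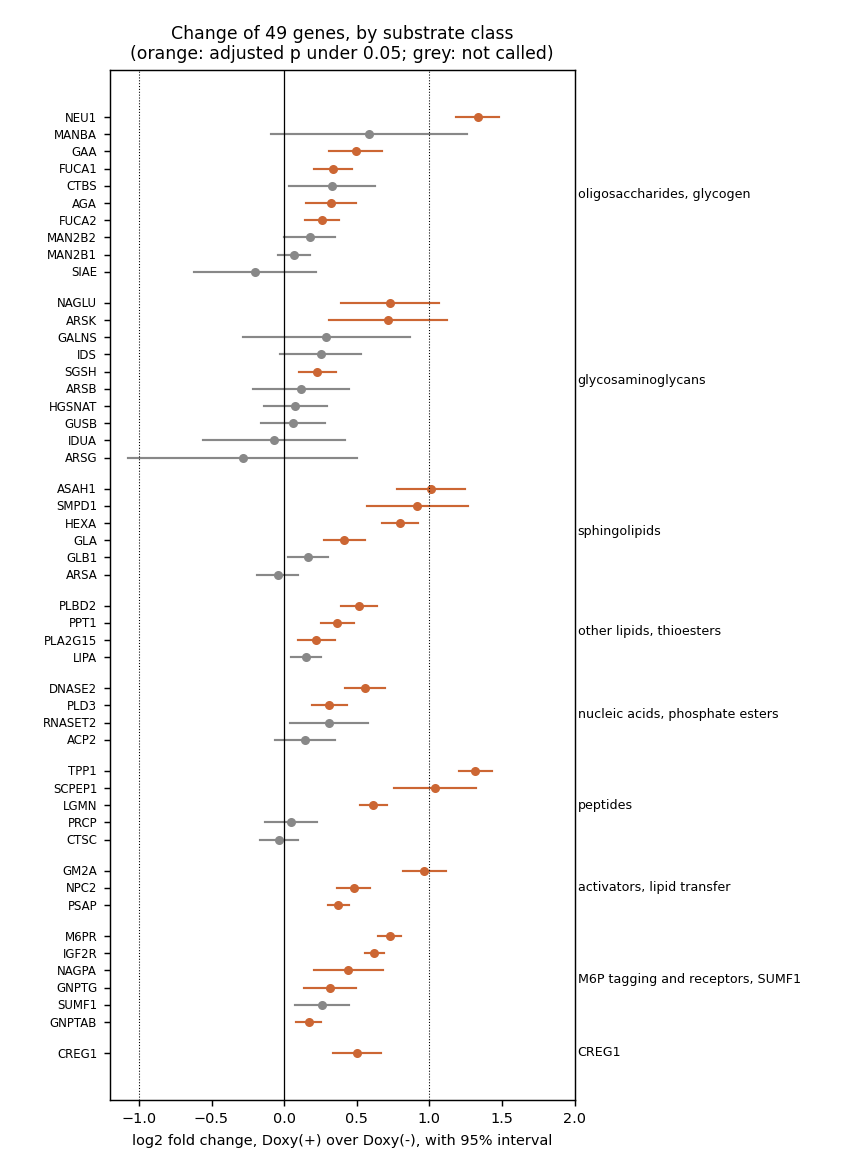
Log2 fold change of each member tested, Doxy(+) over Doxy(-), on the x axis with its 95% interval from the edgeR fit, grouped on the y axis by class, with called members in orange. The points lie mostly right of 0, NEU1 and TPP1 farthest among the called members at 1.33 and 1.32. ACP5 (1.62, interval -1.73 to 4.97) is left out because its interval would set the axis.

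Next, the promoters were searched for the E-box, because the members moved together. RefSeq windows (GRCh38.p14), from 250 bases before to 50 after the start of transcription, were at hand for 43 of the 52 genes. The motifs searched were CACGTG, TCACGTGA and the 10-base palindrome that adds a G before and a C after TCACGTGA. Each reads the same on both strands, and the longer ones contain the shorter. CACGTG was in 11 of the 43 member windows (25.6%) and in 7.26% of all 35116 windows. TCACGTGA was in 9 (20.9%) against 0.980%, and the 10-base palindrome in 6 (14.0%) against 0.353%. The 35116 windows were not limited to genes tested, whereas most members were tested, so these shares are not a matched background. The numbers of tested genes with each motif are given below. The windows of 30 bases around the motif are shown 5′ to 3′ on the strand of the gene for the 6 genes with the 10-base palindrome, the 3 with TCACGTGA at most, and NEU1, the member with the largest called change, with the motif in capitals.
IGF2R (chr6:159969042-159969071, plus strand): ccgggcggctGTCACGTGACgcggttccgg
GAA, distal (chr17:80101493-80101522, plus strand): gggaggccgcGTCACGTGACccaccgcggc
GAA, proximal (chr17:80101538-80101567, plus strand): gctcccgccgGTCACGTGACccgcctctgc
PLBD2 (chr12:113358551-113358580, plus strand): gcagagcgcaGTCACGTGACccgggctgcg
PLD3 (chr19:40348548-40348577, plus strand): agtcgtaaccGTCACGTGACcgcccaccgt
GNPTG (chr16:1351907-1351936, plus strand): ggtccccgtgGTCACGTGACcgtcacttca
GALNS (chr16:88857104-88857133, minus strand): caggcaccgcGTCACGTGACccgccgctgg
SCPEP1 (chr17:56978092-56978121, plus strand): gtccgcctccgTCACGTGAtggggcgccgg
ARSK (chr5:95554997-95555026, plus strand): ccaggactcatTCACGTGActggaagtggc
NAGPA (chr16:5033938-5033967, minus strand): tgggacttgagTCACGTGAggcgagcccac
NEU1 (chr6:31862930-31862959, minus strand): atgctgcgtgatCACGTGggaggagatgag

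The motif lay 14 bases before the start in GNPTG, 21 in NAGPA, 26 in PLBD2, 28 in SCPEP1 and 30 in IGF2R. In ARSK it lay 93 bases before the start, in NEU1 126 and in PLD3 137. GAA held it at 78 and at 33 bases before the start, and GALNS was the farthest of the set at 176 bases. Of the 9 genes with TCACGTGA in the window, 8 were called higher and GALNS was not. Of the 2 with CACGTG at most, NEU1 was called and SUMF1 (0.26) was not. The SUMF1 motif, not shown above, lay 13 bases before the start. Of the 30 tested members whose window held none of the motifs, 14 were called, with a median log2 fold change of 0.26. That group includes TPP1 (1.32), GM2A (0.96), SMPD1 (0.92) and M6PR (0.73). The 9 members without a window could not be searched. They are MANBA, NAGLU, SGSH, HGSNAT, HEXA, ARSA, ASAH1, LGMN and PSAP, and ASAH1 (1.01) and HEXA (0.80) are among the larger changes. Genes tested without a window were left out of the comparison over all genes. Of 9366 tested genes whose window held no motif, 8.94% were called higher. The share was 17.2% of 855 with CACGTG at most, 38.7% of 119 with TCACGTGA at most and 31.0% of 87 with the 10-base palindrome. A match is a description of the sequence and does not show binding.

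**Figure D2:**
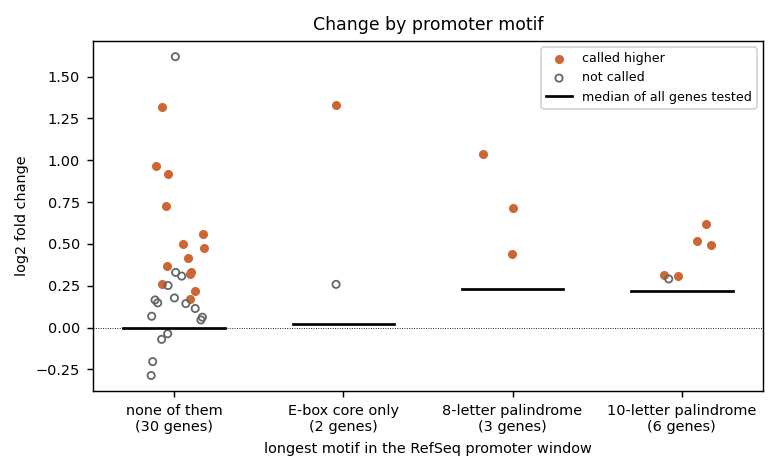
Log2 fold change, Doxy(+) over Doxy(-), on the y axis by the longest motif in the RefSeq promoter window on the x axis (none, CACGTG at most, TCACGTGA at most, the 10-base palindrome). Filled points are members called higher and open points members not called. Bars are the median of all genes tested that have a window, which is -0.0050 with no motif, 0.02 with CACGTG, 0.23 with TCACGTGA and 0.22 with the 10-base palindrome.

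Among the 10 enzymes of glycoprotein oligosaccharides and glycogen, 5 were called higher and their median log2 fold change was 0.33. For this and each class below, the share called higher over all genes tested was 9.76%. NEU1, the sialidase that removes terminal sialic acids, was at 28.5 and 27.3 CPM without doxycycline and at 68.3 and 72.0 CPM with it. The Doxy(+) libraries lay far above the others with little spread, a 2.52-fold difference in mean and a log2 fold change of 1.33 (SE 0.0618, adjusted p = 0.000173). NEU1 lies on chromosome 6 from 31857659 to 31862905 on the minus strand (hg38, GENCODE release 44). The quantifier also placed reads on 20 unmatched identifiers that copy its transcripts, so the CPM printed is a part of its signal. With those added it was at 172 and 163 CPM without doxycycline and at 413 and 428 CPM with it.

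GAA, the acid glucosidase that breaks down glycogen, was at 36.7 and 32.9 CPM without doxycycline and at 50.3 and 47.5 CPM with it. Its groups did not overlap and its log2 fold change was 0.49 (SE 0.0746, adjusted p = 0.00718 by edgeR), but its adjusted p ranged from 0.000297 to 0.0847 over the alternatives, and it was not called on length-scaled counts or by limma on TPM. The fucosidases FUCA1 and FUCA2, with log2 fold changes of 0.33 and 0.26, and AGA, which splits the bond between asparagine and the glycan, with 0.32, were the other called enzymes of this class. AGA lost its call in 10 of the 15 alternatives, FUCA2 in 6 and FUCA1 in 2.

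The mannosidases of this class were not called. MAN2B1, the alpha-mannosidase, was at 115 and 114 CPM without doxycycline and at 124 and 117 CPM with it. Its Doxy(+) libraries were only slightly higher, with a log2 fold change of 0.07 and a 95% interval from -0.05 to 0.18. MAN2B2, a second alpha-mannosidase, was at 56.4 and 63.3 CPM and at 66.2 and 69.2 CPM (0.18, interval 0.0025 to 0.35). With Doxy(-) 2 left out it was called at 0.26 (adjusted p = 0.0419 by edgeR, the lowest over its alternatives, which reached 0.433). MANBA, the beta-mannosidase, shown because its replicates differed, stood at 14.0 and 17.6 CPM without and at 16.9 and 30.5 CPM with doxycycline, so that Doxy(+) 1 lay within the Doxy(-) range. Its log2 fold change was 0.58 (SE 0.276, adjusted p = 0.203 by edgeR) and it was called with Doxy(+) 1 left out (0.94, adjusted p = 0.0225). CTBS, which cleaves the core chitobiose, had a value of 0.33 without a call. SIAE, the sialate esterase, was at 7.26 and 6.40 CPM and at 6.27 and 5.56 CPM (-0.20, interval -0.62 to 0.22), and was named after its values were seen.

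**Figure D3:**
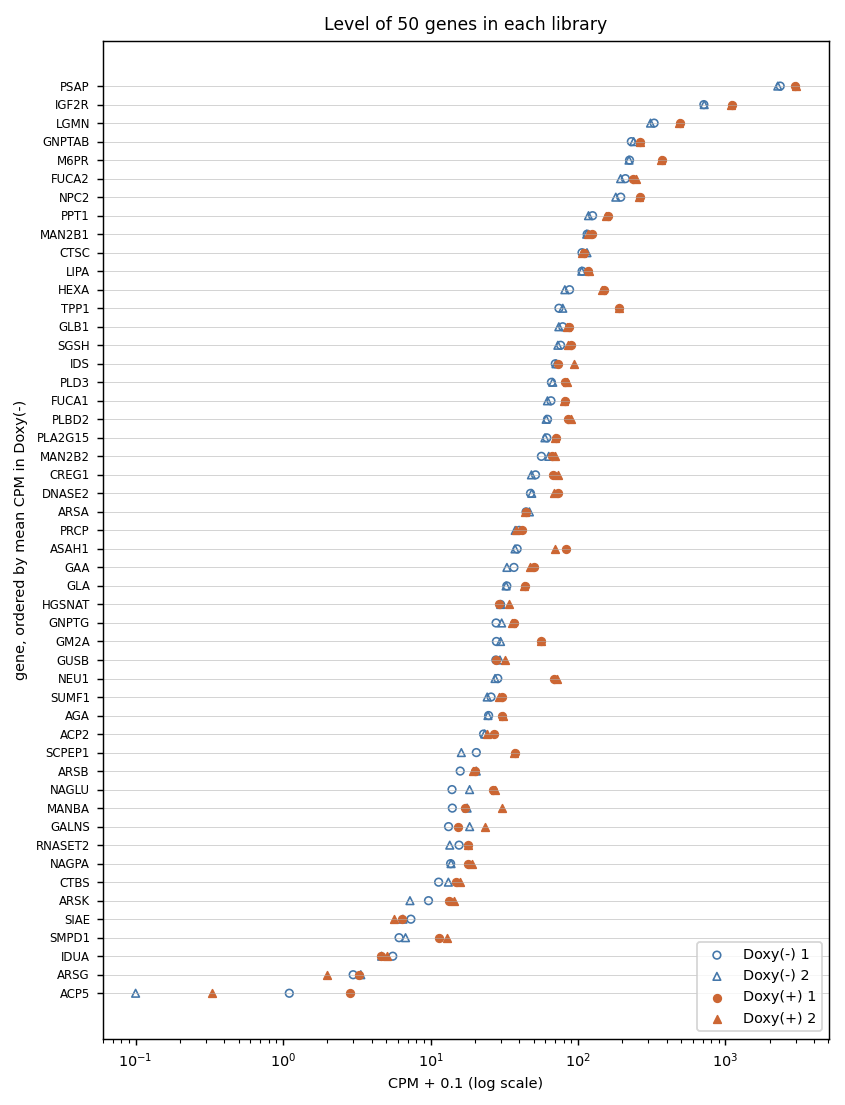
CPM + 0.1 of the 50 tested members in each of the 4 libraries on a logarithmic x axis, ordered on the y axis by mean CPM in Doxy(-), with open symbols for Doxy(-) and filled ones for Doxy(+). The 2 libraries of a group lie close together for most genes, as for TPP1 at 74.2 and 78.8 against 190 and 191 CPM, while the groups of MAN2B1 lie within 114 and 124 CPM.

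Of the 10 genes that act on glycosaminoglycans, NAGLU, ARSK and SGSH were called higher. The median log2 fold change was 0.17, and the summed level was 151 and 155 TPM in Doxy(-) and 173 and 187 TPM in Doxy(+). NAGLU, the glucosaminidase of heparan sulfate, was at 13.9 and 18.3 CPM without doxycycline and at 26.3 and 27.3 CPM with it. Both Doxy(+) libraries were above the Doxy(-) libraries, which themselves differed, and the log2 fold change was 0.73 (SE 0.138, adjusted p = 0.0161 by edgeR). ARSK, a sulfatase of glucuronate, was at 9.59 and 7.15 CPM and at 13.2 and 14.2 CPM, without overlap (0.72, SE 0.167, adjusted p = 0.0322 by edgeR). With Doxy(+) 1 or Doxy(+) 2 left out neither was called, and ARSK was not called without Doxy(-) 2 either; the adjusted p reached 0.0873 for NAGLU and 0.134 for ARSK over the alternatives.

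SGSH, the sulfamidase of heparan sulfate, was at 76.2 and 73.0 CPM without doxycycline and at 89.2 and 85.5 CPM with it (0.23, SE 0.0528, adjusted p = 0.0313 by edgeR). It is shown because its direction depended on the transcripts summed. With only protein coding transcripts the log2 fold change was -0.04 (adjusted p = 0.848, the highest over its alternatives, the lowest being 0.0191). Its retained-intron transcript SGSH-213 held 274 and 270 estimated counts in Doxy(-) and 337 and 349 in Doxy(+), whereas the coding SGSH-201 held 391 and 554 against 452 and 444. SGSH-210, annotated as a target of nonsense-mediated decay, held 179 and 121 in Doxy(-) and 254 and 251 in Doxy(+).

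The remaining glycosaminoglycan genes had no call. GUSB, the beta-glucuronidase, was at 27.6 and 29.5 CPM without doxycycline and at 27.9 and 31.7 CPM with it, and the groups overlapped (0.06, interval -0.16 to 0.28). It has 18 annotated pseudogenes, so its values are less certain. IDUA, the iduronidase, was at 5.45 and 4.56 CPM and at 4.49 and 5.0 CPM, again with overlap (-0.07, interval -0.56 to 0.42). IDS, the iduronate sulfatase, had a log2 fold change of 0.25, and it was called with Doxy(+) 1 left out (0.42, adjusted p = 0.0269 by edgeR). ARSB and ARSG, sulfatases of dermatan and heparan sulfate, stood at 0.11 and -0.29, and HGSNAT, the membrane acetyltransferase of heparan sulfate, at 0.08. GALNS, the galactosamine sulfatase with the CLEAR-type palindrome shown above, had a log2 fold change of 0.29 (SE 0.237). Its libraries stood at 13.2 and 18.3 CPM and at 15.3 and 23.3 CPM, and the estimate of its transcript GALNS-209 varied from 32.3 to 134 estimated counts in Doxy(-) and from 14.3 to 90.3 in Doxy(+). Over the 7 sulfatases of the list, which share the activating enzyme SUMF1, 2 were called, against 9.76% of all genes, and the median was 0.23.

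Of the 6 sphingolipid enzymes tested, 4 were called, with a median log2 fold change of 0.61. ASAH1, the acid ceramidase, which splits ceramide into sphingosine and fatty acid, was at 38.6 and 37.3 CPM without doxycycline and at 83.3 and 69.5 CPM with it. Both Doxy(+) libraries were far above the Doxy(-) libraries although they differed from each other, and the log2 fold change was 1.01 (SE 0.0954, adjusted p = 0.00143 by edgeR). With only protein coding transcripts it was 0.84 without a call (adjusted p = 0.127, the highest over its alternatives, the lowest being 2.86e-16). SMPD1, the acid sphingomyelinase that produces ceramide, was at 6.02 and 6.67 CPM and at 11.3 and 12.7 CPM. Its groups were well apart, at 1.90-fold (log2 0.92, SE 0.141, adjusted p = 0.00768 by edgeR), and limma on log2(TPM + 1) alone did not call it (adjusted p = 0.0510, the lowest over its alternatives being 0.00207).

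HEXA, the alpha subunit of beta-hexosaminidase, was at 87.6 and 81.4 CPM without doxycycline and at 149 and 145 CPM with it. The groups were far apart, at 1.74-fold (log2 0.80, SE 0.0517, adjusted p = 0.000408 by edgeR). GLA, the alpha-galactosidase, was also called, with a log2 fold change of 0.41. GLB1, the beta-galactosidase, was at 78.7 and 74.1 CPM without doxycycline and at 87.4 and 83.8 CPM with it, without overlap but without a call (0.17, interval 0.03 to 0.30). ARSA, which desulfates sulfatide, was at 44.4 and 46.7 CPM and at 44.7 and 43.7 CPM, with overlap (-0.04, interval -0.19 to 0.10). GALC, the galactosylceramidase, was between 0.494 and 0.719 CPM in the 4 libraries, too low to be tested.

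Among the genes for other lipids and acyl thioesters, 3 of the 4 tested were called, with a median log2 fold change of 0.29. PLBD2, a phospholipase B-like protein, was at 62.1 and 60.8 CPM without doxycycline and at 86.1 and 89.3 CPM with it (0.51, SE 0.051, adjusted p = 0.00168 by edgeR). PPT1, which removes palmitate from proteins, was at 126 and 118 CPM and at 159 and 155 CPM (0.37, SE 0.047, adjusted p = 0.00419 by edgeR). In both the groups were clearly separate and each replicate pair was close. PLA2G15, the lysosomal phospholipase, was called at 0.22, but in 6 of the 15 alternatives only. LIPA, the acid lipase of cholesteryl esters, was at 107 and 106 CPM and at 116 and 119 CPM, without overlap and without a call (0.15, interval 0.04 to 0.25). PPT2, a second thioesterase, did not exceed 0.0873 CPM in any library, which is under the level that 3 counts give (0.204 to 0.233 CPM), so no fold is given.

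Of the 5 genes acting on nucleic acids and phosphate esters, 2 were called, with a median log2 fold change of 0.31. DNASE2, the acid endonuclease that degrades DNA, was at 47.5 and 48.5 CPM without doxycycline and at 72.6 and 68.8 CPM with it (0.56, SE 0.0568, adjusted p = 0.00188 by edgeR). PLD3, an exonuclease of single strands, was at 66.0 and 67.4 CPM and at 81.5 and 83.9 CPM (0.31, SE 0.0499, adjusted p = 0.00895 by edgeR). The groups were separate for both, and PLD3 lost its call with either Doxy(+) library left out (adjusted p up to 0.0709, the lowest over its alternatives being 0.00176). RNASET2, the acid ribonuclease, was at 15.5 and 13.4 CPM and at 17.9 and 17.8 CPM (0.31, interval 0.04 to 0.58). ACP2, an acid phosphatase, was at 22.8 and 23.2 CPM and at 26.7 and 24.2 CPM (0.14, interval -0.06 to 0.35). Neither was called, although the groups did not overlap. ACP5, a second acid phosphatase, had the highest estimate of all members, 1.62, but this rested on Doxy(+) 1, where it was at 2.76 CPM against 0.232 CPM in Doxy(+) 2 and 1.0 CPM in Doxy(-) 1, and without that library the value was -1.09.

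Among the 5 peptide hydrolases, 3 were called, with a median log2 fold change of 0.61. TPP1, a tripeptidyl peptidase that removes residues from the amino terminus, was at 74.2 and 78.8 CPM without doxycycline and at 190 and 191 CPM with it. This 2.49-fold difference was many times the spread within groups (log2 1.32, SE 0.0457, adjusted p = 7.18e-05 by edgeR), the smallest adjusted p of the 50 members tested. TPP1 lies on chromosome 11 from 6612768 to 6619448 on the minus strand. SCPEP1, a serine carboxypeptidase on chromosome 17 from 56978129 to 57006768, was at 20.3 and 16.1 CPM and at 37.6 and 36.9 CPM, without overlap (1.04, SE 0.117, adjusted p = 0.00266 by edgeR). With only protein coding transcripts SCPEP1 had 0.66 and no call (adjusted p = 0.221, the highest over its alternatives, the lowest being 7.93e-10). Its transcript SCPEP1-214, annotated as a target of nonsense-mediated decay, held 38.4 and 82.3 estimated counts in Doxy(-) and 166 and 254 in Doxy(+).

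The other peptide hydrolases differed among themselves. LGMN, the asparagine endopeptidase, was at 328 and 310 CPM without doxycycline and at 492 and 486 CPM with it. It was the most abundant hydrolase of the list per transcript length, and its groups were well apart (0.61, SE 0.0372, adjusted p = 0.000326 by edgeR). CTSC, a dipeptidyl peptidase that activates serine proteases, was at 106 and 115 CPM without doxycycline and at 109 and 107 CPM with it, with overlapping groups (-0.04, interval -0.17 to 0.09). PRCP, the prolylcarboxypeptidase, was at 39.9 and 37.4 CPM and at 41.7 and 38.1 CPM, also with overlap (0.05, interval -0.13 to 0.22).

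All 3 activator and lipid transfer proteins were called, with a median log2 fold change of 0.48. GM2A, which lifts GM2 ganglioside out of the membrane for hexosaminidase, was at 27.9 and 29.7 CPM without doxycycline and at 56.3 and 56.2 CPM with it. Its groups were far apart, a 1.95-fold difference (log2 0.96, SE 0.0607, adjusted p = 0.000358 by edgeR). NPC2, the cholesterol carrier of the lumen, was at 195 and 180 CPM and at 263 and 259 CPM (0.48, SE 0.0458, adjusted p = 0.00149 by edgeR). PSAP, the precursor of the saposins that serve several sphingolipid hydrolases, is shown for its abundance, with 2352 and 2265 CPM and 2953 and 3027 CPM (0.37, SE 0.0299, adjusted p = 0.000804 by edgeR).

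Of the 6 genes for tagging, receptors and sulfatase activation, 5 were called, with a median log2 fold change of 0.38. M6PR, the cation-dependent mannose-6-phosphate receptor, was at 224 and 222 CPM without doxycycline and at 372 and 365 CPM with it (0.73, SE 0.0322, adjusted p = 0.000158 by edgeR). IGF2R, the cation-independent receptor, was at 714 and 718 CPM and at 1111 and 1090 CPM (0.62, SE 0.0271, adjusted p = 0.000153 by edgeR). Both receptors had groups that were far apart with nearly equal replicates, 1.65-fold and 1.54-fold in mean. With only protein coding transcripts M6PR had 0.37 and no call (adjusted p = 0.156, the highest over its alternatives, the lowest being 1.01e-55). Most of its reads were placed on M6PR-206, annotated as a target of nonsense-mediated decay, which held 2167 and 2336 estimated counts in Doxy(-) and 3667 and 3746 in Doxy(+).

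The tagging enzymes had lower estimates. GNPTAB and GNPTG, subunits of the phosphotransferase that adds the tag, had log2 fold changes of 0.17 and 0.32, and NAGPA, which uncovers the tag, had 0.44. All 3 were called, but NAGPA lost its call in 10 of the 15 alternatives, GNPTG in 7 and GNPTAB in 6. SUMF1, which generates the catalytic residue of the sulfatases, was at 25.6 and 24.1 CPM and at 30.4 and 29.1 CPM, without overlap and without a call (0.26, interval 0.07 to 0.44). CREG1, a lysosomal glycoprotein placed in no class, was at 51.4 and 48.2 CPM and at 67.7 and 73.4 CPM (0.50, SE 0.0668, adjusted p = 0.00472 by edgeR).

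Compared by class, the summed TPM was higher in both Doxy(+) libraries than in both Doxy(-) libraries in each of the 8 classes. The ratio of group means was 1.55 for sphingolipids, 1.53 for tagging and receptors, 1.45 for peptides, 1.38 for nucleic acids and phosphate esters, 1.37 for activators, 1.32 for oligosaccharides and glycogen, 1.28 for other lipids and 1.18 for glycosaminoglycans. These sums leave out the unmatched copies, and class ratios with copies added were not computed. Copies of NEU1, in the oligosaccharide class, held 144 and 136 CPM in Doxy(-) and 345 and 356 CPM in Doxy(+). The ratio of that class, and so the order of the classes, is therefore uncertain. The differences between classes were not tested. The glycosaminoglycan median of 0.17 moved most when a library was left out, and was 0.055 with Doxy(+) 2 left out.

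**Figure D4:**
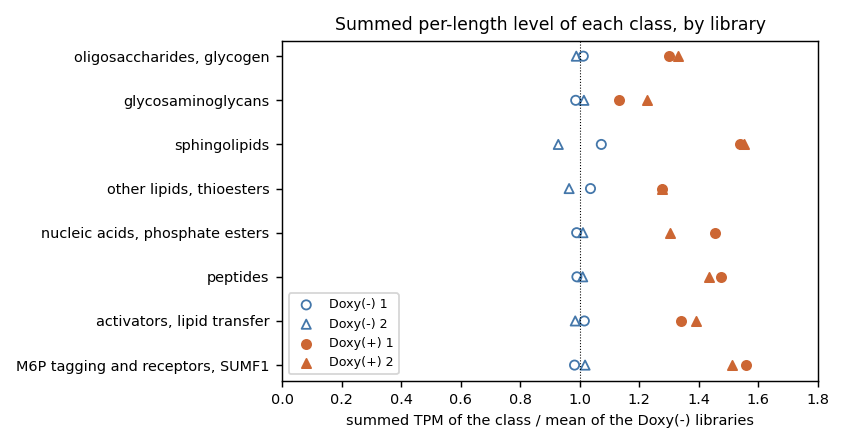
Summed TPM of each class in the 4 libraries, divided by the mean of its Doxy(-) libraries, on a linear x axis from 0, with open symbols for Doxy(-) and filled ones for Doxy(+). In each class both Doxy(+) libraries lie above both Doxy(-) libraries, from 151 and 155 against 173 and 187 TPM for glycosaminoglycans to 1809 and 1755 against 2387 and 2479 TPM for activators.

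Next, the levels were compared between genes per transcript length. PSAP was the highest in every library, at 1352 and 1334 TPM in Doxy(-) and at 1752 and 1843 TPM in Doxy(+), which was between 31.2% and 33.4% of the summed TPM of the members. NPC2 followed at 446 and 409 TPM in Doxy(-), apart from the next genes. M6PR (273 and 289 TPM) and LGMN (261 and 255 TPM) lay close together, and so did FUCA2 (141 and 124 TPM) and IGF2R (128 and 128 TPM), whose levels overlapped. In Doxy(+) M6PR reached 464 and 448 TPM, LGMN 399 and 382 TPM and IGF2R 210 and 198 TPM, above FUCA2 at 155 and 169 TPM. ARSG, GALC, ACP5 and PPT2 were the lowest, and none of them exceeded 1.82 TPM in Doxy(-). Without PSAP the members summed to 2731 and 2655 TPM in Doxy(-) and to 3857 and 3823 TPM in Doxy(+), a ratio of 1.43.

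Finally, the members were set beside other gene lists. The shares over all genes tested were 9.76% called higher and 9.53% called lower. Of 24 tested genes for other lysosomal lumen proteins, 13 (54.2%) were called higher and 1 lower, with a median log2 fold change of 0.45. IFI30, a thiol reductase of the lumen, was at 142 and 131 CPM without doxycycline and at 415 and 405 CPM with it (1.59), and CTSA, the carboxypeptidase that protects NEU1, was at 294 and 299 CPM and at 616 and 608 CPM (1.04). Of 25 genes of trans-Golgi and endosome sorting, 9 (36.0%) were called higher, with a median of 0.13. GGA2, an adaptor that binds the tails of mannose-6-phosphate receptors, had 0.53 and AP1AR, a regulator of the AP-1 adaptor, 0.49. Of 44 tested enzymes of like chemistry outside the lysosome, 5 (11.4%) were called higher and 5 lower, near the shares over all genes. Their median was 0.02 and their summed TPM ratio 1.01. PLA2G4A, a cytosolic phospholipase, at 0.379 and 0.682 CPM without doxycycline and at 6.95 and 3.95 CPM with it, had a log2 fold change of 3.30, and STS, the steroid sulfatase of the endoplasmic reticulum, had 0.71.

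**Figure D5:**
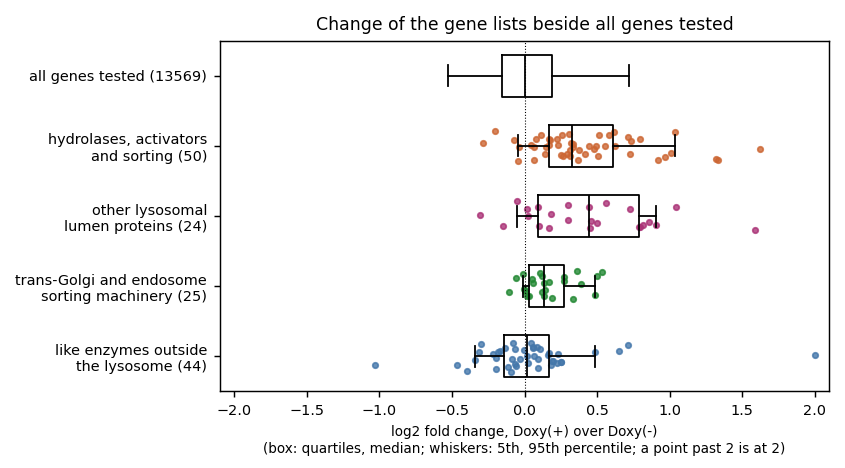
Log2 fold change, Doxy(+) over Doxy(-), of the members and of the 3 other lists beside all genes tested; boxes give the quartiles and median, whiskers the 5th and 95th percentile, points the genes. The medians are 0.33 for the members, 0.45 for other lumen proteins, 0.13 for sorting machinery and 0.02 for like enzymes outside the lysosome; PLA2G4A at 3.30 is drawn at the edge.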

How the data were processed

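Polyadenylated RNA of HK-2 cells was sequenced from 2 Doxy(-) and 2 Doxy(+) libraries. The study's methods name trimming with Trim Galore 0.6.6 (cutadapt 2.5), STAR 2.7.9a on hg38, RSEM and DESeq2, but the tables have kallisto's columns. The quantifier's version and its use of strand are not given in the sources used here. The deposited expected counts (estimated, not whole, not normalized) and the deposited TPM (scaled by the authors to 1000000 per library) are per Ensembl transcript.

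Here they were summed per gene through GENCODE release 44, which matched 150691 of 180253 identifiers (83.6%), the unmatched ones holding 9.66% to 9.89% of counts and staying out. Library totals were 14513497 and 16618401 in Doxy(-), and 14042545 and 14664879 in Doxy(+). Rounded sums were tested with edgeR 4.0.16 (R 4.3.3) by glmQLFit and glmQLFTest, two-sided, after TMM and filterByExpr, with the group as the only term and Benjamini-Hochberg adjustment over all genes tested. SE and 95% intervals come from the quasi-likelihood F. The limit of 3 counts for a count of 0 covers counting error only. Replicates differed beyond sampling noise (chi-square per degree of freedom 4.03 and 2.91) and were separate libraries. An exact permutation test of 2 against 2 cannot go below p = 0.333.

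Members, classes, compared lists and tests were chosen with earlier results of these data known. Values in every library are given for members past both limits and, in each class, the 2 called with the largest and the 2 not called with the smallest change; HEXA, LGMN, PSAP, MANBA, SIAE, GALNS, SGSH, GLA and ACP5, where values are given, were chosen after theirs were seen. From each compared list the 2 called genes with the largest change are named. Alternatives were RLE size factors, other filters, DESeq2 1.42.0, limma 3.58.1 on log2(TPM + 1) and log2(TPM + 0.1), length-scaled counts, unmatched identifiers, a replicate block and each library left out. Coding transcripts alone and members without overlap, pseudogene or copy were added after seeing the data.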

Additional observations from a re-analysis of the deposited data

Results flagged for a closer look

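Some reads were on identifiers that match no gene in GENCODE but copy transcripts of a member in their length and in their 4 counts, and the comparisons of the report leave them out. For NEU1, 20 such identifiers held 144 and 136 CPM in Doxy(-) and 345 and 356 CPM in Doxy(+), several times the 28.5 to 72.0 CPM on NEU1 itself. With them added the log2 fold change of NEU1 was 1.33 (SE 0.0408, adjusted p = 3.69e-05 by edgeR). For GLA, 6 identifiers held 32.8 and 32.3 CPM in Doxy(-) and 43.8 and 43.2 CPM in Doxy(+), about as much as GLA itself, and the log2 fold change with them was 0.42. For SGSH, 1 identifier copied SGSH-210, a transcript annotated as a target of nonsense-mediated decay. It held 13.9 and 8.26 CPM in Doxy(-) and 19.8 and 18.7 CPM in Doxy(+). The log2 fold change of SGSH with it was 0.32 (adjusted p = 0.0191 by edgeR). IDS and ARSG also have such identifiers, 5 and 2 of them. The groups have 2 libraries each, too few for a test for outlying samples.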

How the results depend on the processing

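The 29 members called higher, the 4 with a log2 fold change over 1 and the median of 0.33 were recomputed under each alternative. No member was called lower under any of them. Of the 29, 12 kept their call in each of the 15 alternatives of the fit, namely NEU1, HEXA, PLBD2, PPT1, DNASE2, TPP1, LGMN, PSAP, GM2A, NPC2, IGF2R and CREG1, and 28 stayed above 0, the exception being SGSH. RLE size factors, no filter, a mean CPM of at least 1 and copies added changed no member's call. DESeq2 called 25 of 52 members higher, beside 1076 higher and 1188 lower of 21193 genes with a fitted change.

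By limma on log2(TPM + 1), 598 of 13311 genes were called higher and 306 lower (117 and 32 with a log2 fold change over 1). Of the members 19 were called, 3 of them over 1. Medians were 0.40 over members, 0.56 for sphingolipids and 0.51 for tagging and receptors. On log2(TPM + 0.1) there were 590 and 299 of 13311 genes (134 and 34) and 20 of 51 members. Medians were 0.41 over members, 0.34 for other lipids and 0.53 for tagging. Length-scaled counts gave 677 and 583 of 13579 genes and 20 of 49 members, 3 of them over 1. Medians were 0.36 over members, 0.57 for sphingolipids, 0.56 for peptides and 0.50 for tagging. With the unmatched identifiers entered as features of their own, 644 and 616 of 13569 genes (111 and 29) and 20 members were called. Protein coding transcripts only was an alternative chosen after seeing the data. It gave 816 and 780 of 12238 genes and 19 of 49 members, 3 of them over 1. Medians were 0.66 for sphingolipids, 0.42 for nucleic acids and 0.33 for tagging. At an adjusted p under 0.01 there were 621 and 554 genes (124 and 34) and 20 members, fewer by construction. Restricted to members without overlap, pseudogene or copy, 15 were called, 2 of them over 1, with a median of 0.43. Adding copies moved the ratio of summed TPM to 1.42. Apart from fewer genes or members entering, the cause was not tested.

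With each library left out in turn, genes called higher ranged from 647 to 1233 and lower from 565 to 1308, and those over 1 from 147 to 216 and from 67 to 88. Members called ranged from 18 to 26, those over 1 from 3 to 4, and their median from 0.31 to 0.35. Class medians ranged from 0.26 to 0.33 for oligosaccharides, 0.055 to 0.23 for glycosaminoglycans, 0.57 to 0.63 for sphingolipids, 0.26 to 0.32 for other lipids, 0.30 to 0.41 for nucleic acids, 0.57 to 0.65 for peptides, 0.42 to 0.53 for activators and 0.36 to 0.41 for tagging. The ratio of summed TPM ranged from 1.38 to 1.41.

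The sign changed in 11 members, of which SGSH alone was called. By limma on log2(TPM + 1), log2(TPM + 0.1) and length-scaled counts, IDUA had 0.032, 0.035 and 0.023 and PRCP -0.015, -0.015 and -0.051, and GUSB had -0.014 on length-scaled counts. With coding transcripts only, GUSB had -0.68, SGSH -0.036, IDUA 0.020 and ARSA 0.012. With each library left out in turn the ranges were -0.047 to 0.56 for GALNS, -0.035 to 0.15 for GUSB, -0.19 to 0.055 for IDUA, -0.056 to 0.31 for ARSB, -0.72 to 0.051 for ARSG, -0.033 to 0.18 for HGSNAT, -0.095 to 0.020 for CTSC and -0.022 to 0.11 for PRCP. ACP5 ranged from -1.09 without Doxy(+) 1 to 7.37 without Doxy(-) 1, where no counts remain in Doxy(-) and the value rests on the prior count. For GALNS, GUSB, ARSG and HGSNAT the sign changed without Doxy(+) 2, for ARSB without Doxy(-) 1, for CTSC without Doxy(-) 2, for PRCP without Doxy(-) 2 or Doxy(+) 1 and for IDUA without Doxy(-) 1 or Doxy(+) 1.

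The replicate number marks no known pairing, and the deviations of same-numbered libraries correlated at -0.015. With the number as a replicate block, 30 members were called, MANBA being added (0.55, adjusted p = 0.0427 by edgeR), and genes called were 1282 higher and 1261 lower. Low counts limited what could be seen for GALC, PPT2, ACP5 and ARSG. PPT2 overlaps PPT2-EGFL8 on the same strand. Copies were sought only for transcripts with at least 10 counts over the libraries, so none could be found for PPT2. Whether its reads were placed elsewhere was not tested.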
